A study of Homo sapiens with 6 samples.

Results

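The samples described here are the replicate 3 pair of an RNA-seq experiment in SK-N-BE(2) cells, compared with the replicate 1 and 2 pairs. SK-N-BE(2) is an established human neuroblastoma line with extra copies of MYCN. Cells were transfected with a control siRNA (NC, 3 samples) or with an siRNA against Prp19, the splicing-associated ubiquitin ligase encoded by PRPF19 (siPrp19, 3 samples), and all 6 samples are labelled 72 h after transfection, with no other allele or agent named. The study's methods give a shorter time than the labels. The contrast is between replicate numbers, 2 samples (NC replicate 3 and siPrp19 replicate 3) against 4, with treatment as a covariate. Replicate 3 was chosen on the measured values, because both of its samples stood apart on the first principal component of log2 FPKM in these same libraries. All differences between replicate 3 and the other replicates are therefore given as a description with no test. Only the interaction, whether the difference between siPrp19 and NC in replicate 3 departs from that in replicates 1 and 2, was tested.

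The labels give a replicate number and no culture, passage, plate, extraction or sequencing date. Nothing in them says that the replicates are separate cultures. The study's methods call them biological replicates, 3 per sample, and do not say how they were kept apart. The p-values therefore measure only the spread between these samples. Values are FPKM, fragments per kilobase of exon scaled to sequencing depth, and differences are on the log2(FPKM + 0.1) scale, averaged over NC and siPrp19, with the standard error of the additive limma fit to 6 samples. This scale understates the change of low genes. Between 19058785 and 24181791 reads on genes were recovered per sample, and 14462 of 58302 genes reached a minimum of 1 FPKM on average over the samples. PRPF19 (ENSG00000110107, chromosome 11, 60890730 to 60906588, GRCh38), which the siRNA targets, measured 53.1, 53.1 and 64.9 FPKM in NC replicates 1, 2 and 3. In siPrp19 replicates 1, 2 and 3 it measured 21.8, 28.5 and 33.6 FPKM. All siPrp19 samples lay below all NC samples, and the log2 difference between siPrp19 and NC was −1.28, −0.90 and −0.95 in replicates 1, 2 and 3. Adrenergic neuroblastoma markers were present in every sample, with 20 of 20 listed genes over the minimum and a summed level of 2695 to 3305 FPKM, among them HAND2 and GATA3, transcription factors that define the line's lineage.

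Cells sense oxygen through the hypoxia-inducible factors (HIF), whose alpha subunits are hydroxylated by the EGLN enzymes when oxygen is plentiful and then bound by VHL and degraded. When they persist, they pair with ARNT and bind short elements with the core letters ACGTG or GCGTG, switching on genes of glucose uptake, glycolysis, angiogenesis and mitophagy. Neuroblastoma cells also make catecholamines from tyrosine, through TH, DDC and DBH.

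Of the 15 protein-coding genes ranked lowest in replicate 3, 7 stand on the lists of hypoxia targets or glycolysis, so the upstream sequence of some hypoxia targets is shown first. Of the 25 listed hypoxia target genes over the minimum level, 20 matched a RefSeq upstream sequence (GRCh38.p14), and the 250 bases before the annotated start were searched for ACGTG on both strands, where CACGTG counts once on each strand. The letters were found in 12 of 20, or 60.0%, against 24.1% of 9708 matched genes tested and 18.5% of all 35116 sequences in the table. The 6 listed genes with at least 2 matches are given as 30 bases from the gene's strand, with the matches inside them in capitals. BHLHE40 and LOX had 4 matches each, of which 2 fall in the stretch shown. The core GCGTG was not searched. In GENCODE 29 the stretches of BHLHE40, LOX and ANKRD37 overlap an exon of a longer transcript of the same gene, and the others lie upstream of the gene. In PPFIA4, AK4 and BNIP3 the 2 matches are a single CACGTG. The genes were listed as hypoxia targets, so their share of matches may follow from that choice and says nothing on replicate 3. A match is a description of letters and not of a bound site.
BHLHE40 (chr3:4979263-4979292, plus strand): ACGTGcctggagtcacagggtagaaCACGT
LOX (chr5:122078350-122078379, minus strand): cttgCACGTttccaatcgcattACGTGaac
ANKRD37 (chr4:185396676-185396705, plus strand): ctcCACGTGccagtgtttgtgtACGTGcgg
PPFIA4 (chr1:203026360-203026389, plus strand): cggcgctctcgtCACGTGcccggacccgag
AK4 (chr1:65147447-65147476, plus strand): ggtcgcagggagCACGTGggccaggcaggc
BNIP3 (chr10:131982040-131982069, minus strand): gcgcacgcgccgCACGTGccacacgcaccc

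On the first principal component, which held 49.9% of the variance of the 14462 genes, NC replicate 3 stood at 48.6 and siPrp19 replicate 3 at 49.5. The other samples lay at −14.1 and −40.1 (NC replicates 1 and 2) and at −8.2 and −35.6 (siPrp19 replicates 1 and 2). The second component, with 18.8%, separated replicate 1 from the rest. Samples of the same number lay beside each other on the first component in both treatments.

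**Figure D1:**
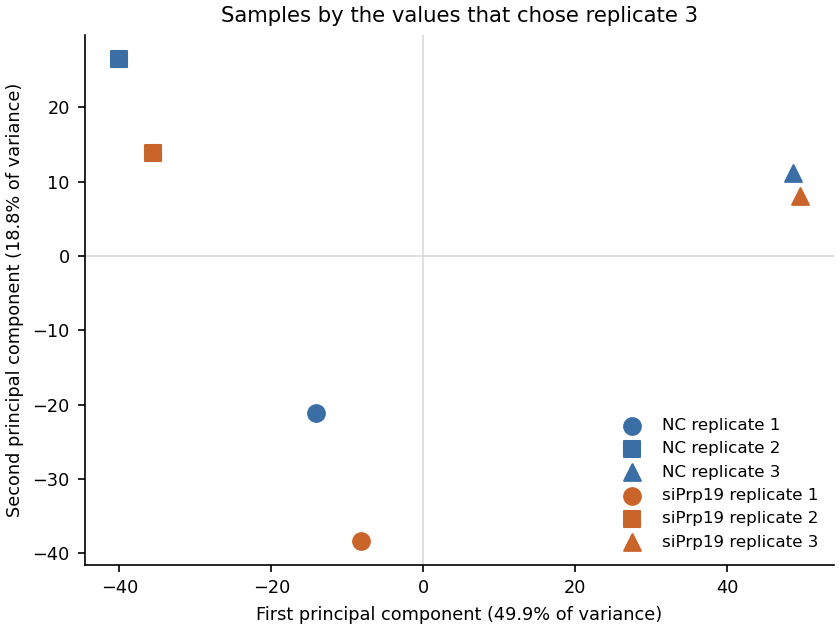
Positions of the 6 samples on the first component (x axis, 49.9% of variance) and second component (y axis, 18.8% of variance) of log2(FPKM + 0.1) over the genes tested; colour gives the treatment and shape the replicate number. Both replicate 3 samples sit at the right, at 48.6 and 49.5, and the 4 others sit left of 0.

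A gene was counted as higher in replicate 3 where both replicate 3 samples exceeded all 4 others and the mean difference was at least 1.5-fold, and as lower in the converse case. By this rule 1150 genes, or 7.95% of those tested, were higher and 1302 genes, or 9.00%, were lower. Since the contrast chose the samples, nothing is read from these shares. Counts in the lists below are to be set beside them. At 2-fold or more the counts were 245 higher and 566 lower, and at 4-fold or more 20 higher and 174 lower. The level minimum is on the mean of 6 samples, 4 of them from replicates 1 and 2. It thus keeps genes near 0 in replicate 3 more readily than genes near 0 in the others. Nothing is read from the imbalance of the large differences. The median over all genes tested was 0.015, and 48.7% of them lay below 0. The protein-coding genes held 916 of the higher and 874 of the lower genes. With replicate 2 alone as the base the counts were 1911 and 2040, past 1.5 times the values above. Just inside the 1.5-fold limit were ABHD6 (higher by 1.5001-fold) and TRIP10 (lower by 1.5005-fold), and just outside it FAM72B (1.4994-fold) and EIF2A (1.4998-fold). At the level minimum, ZFAT had a mean of 1.00 FPKM and ENSG00000256417 a mean of 0.9998 FPKM.

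The difference was alike in size in both treatments. Its standard deviation across genes was 0.69 in NC and 0.68 in siPrp19, while that of replicate 2 minus replicate 1 was 0.56 and 0.59. Across genes, which are not independent replicates, the differences in NC and siPrp19 correlated with r = 0.64. The listed hypoxia targets lay low in both arms, the genes of mitochondrial DNA high in both, and replication genes mostly high.

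**Figure D2:**
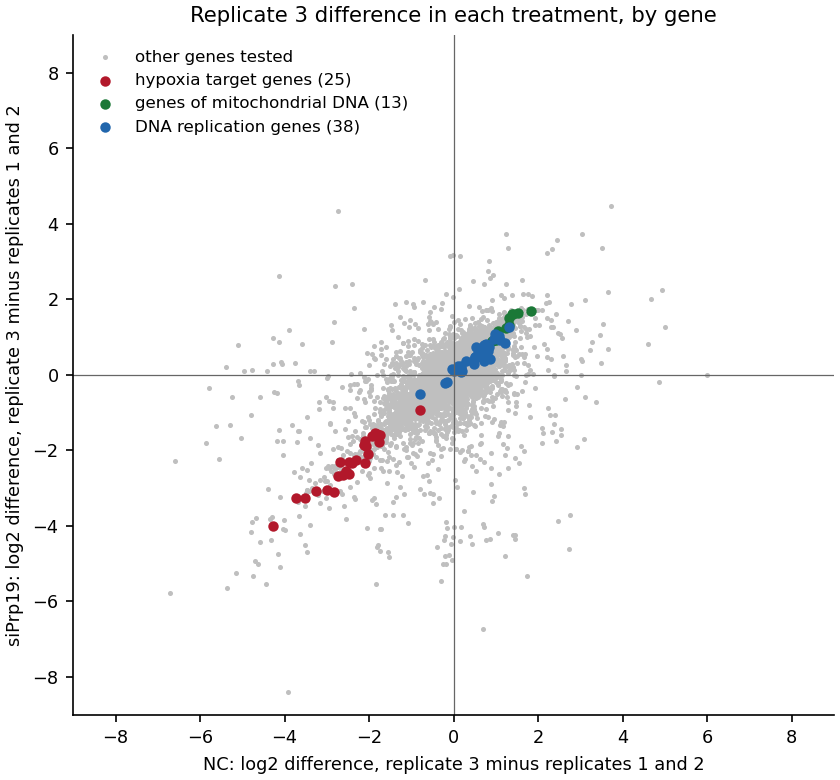
Each point is a gene tested; the x axis is the log2 difference between replicate 3 and replicates 1 and 2 in NC and the y axis the same in siPrp19. The 25 hypoxia target genes lie at the lower left, the 13 genes of mitochondrial DNA at the upper right and most of the 38 DNA replication genes above 0 on both axes.

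Hypoxia target genes were lower in replicate 3. Of 26 listed genes 1 was under the minimum level, and 25 of the other 25 were counted as lower, with differences from −4.13 to −0.86 and a median of −2.37, against 0.015 over all genes. The median was −2.41 in NC and −2.32 in siPrp19. The summed level of the list was 1634, 2353 and 327 FPKM in NC replicates 1, 2 and 3. BHLHE40, a circadian and hypoxia-responsive repressor with the lowest value of the list, had 26.1, 40.9 and 1.59 FPKM in NC replicates 1, 2 and 3. In siPrp19 replicates 1, 2 and 3 it had 24.6, 44.7 and 1.99 FPKM, a difference of −4.13 ± 0.29 (SE). Replicate 3 of each treatment stood well below the others, and replicate 2 was the highest.

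VEGFA, the angiogenic growth factor, had 157.7, 241.2 and 20.2 FPKM in NC and 126.0, 222.4 and 19.6 FPKM in siPrp19 replicates 1, 2 and 3. Its difference was −3.18 ± 0.27 (SE), and neither replicate 3 value overlapped with the others. NDRG1, a stress-induced gene of differentiation, had 194.8, 363.1 and 23.2 FPKM in NC and 163.8, 369.9 and 25.7 FPKM in siPrp19. ANKRD37, an ankyrin repeat gene induced by HIF, had 18.2, 27.6 and 1.61 FPKM in NC and 16.2, 28.3 and 2.16 FPKM in siPrp19. Both repeat the order of BHLHE40, with replicate 3 lowest and replicate 2 highest. DDIT4, an inhibitor of mTORC1, differed by −3.02, CA9, a carbonic anhydrase, by −2.22, and ERO1A, an oxidase of the endoplasmic reticulum, by −0.86, the smallest difference of the list.

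Replicates 1 and 2 also differed from each other in this list. In 24 of 25 members replicate 2 was above replicate 1 in both treatments, with a median difference of 0.60 in NC and 0.75 in siPrp19. The gap to replicate 3 was larger than this, and the list median was −2.15 with replicate 1 alone as the base. Each value here is a mean over a bulk culture, in which fewer cells of a type and less RNA per cell cannot be told apart.

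The genes of the oxygen-sensing machinery itself, looked at after their values were seen, did not all lie on the same side. EGLN1 and EGLN3, prolyl hydroxylases that are themselves HIF targets, differed by −1.97 and −1.92. EGLN3 had 35.2, 54.5 and 10.2 FPKM in NC and 27.4, 43.9 and 10.3 FPKM in siPrp19 replicates 1, 2 and 3, with replicate 3 below all others. HIF3A, a HIF alpha paralog, differed by −1.60, and ARNT, the shared partner, by −0.54. HIF1A, the main oxygen-regulated alpha subunit, had 41.5, 34.2 and 62.9 FPKM in NC and 35.2, 32.5 and 52.5 FPKM in siPrp19, so its mRNA was highest in replicate 3, by 0.68 ± 0.11 (SE). ARNT2 was higher by 0.62, while VHL at 0.26 and EPAS1 at 0.24 fell short of 1.5-fold. HIF1A-AS3, a noncoding RNA annotated opposite HIF1A on chromosome 14 (61715558 to 61751097), had 27.1, 27.2 and 2.47 FPKM in NC and 35.3, 31.7 and 2.04 FPKM in siPrp19. Whether the counting used strand is not given in the sources used here, so reads in the stretch it shares with HIF1A may belong to either gene.

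Glycolysis genes split glucose to pyruvate and lactate. Of 23 genes, 19 were lower, 0 higher, and the median was −1.23 (range −4.09 to 0.21). The glucose transporter SLC2A1 had 143.8, 286.1 and 18.8 FPKM in NC and 107.9, 271.7 and 20.1 FPKM in siPrp19 replicates 1, 2 and 3, a difference of −3.26 ± 0.44 (SE). SLC2A3, the neuronal glucose transporter, differed by −3.53, and PFKFB4 and PFKFB3, which make the allosteric activator of phosphofructokinase, by −4.09 and −2.65. Enzymes of the trunk of the pathway were lower by less. PGK1 differed by −1.43 and GAPDH by −0.95, the latter with 1348, 1731 and 771.5 FPKM in NC and 1397, 1719 and 825.8 FPKM in siPrp19. The lactate dehydrogenase genes were not among the lower ones, and LDHA, at 5.58 to 7.40 FPKM in replicates 1 and 2, had 7.37 FPKM in NC replicate 3 and 7.85 FPKM in siPrp19 replicate 3, so the groups overlapped.

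The 15 protein-coding genes ranked lowest in replicate 3 also held genes outside both lists. ANGPTL4, an inhibitor of lipoprotein lipase, had 76.8, 185.6 and 6.80 FPKM in NC and 53, 174.6 and 10.2 FPKM in siPrp19. CXCR4, a chemokine receptor, differed by −3.50, and PPP1R3C, which targets phosphatase to glycogen, by −3.08. The rank also held CABP7, a calcium-binding protein (−4.05), SRMS, a tyrosine kinase (−3.18), and MYOD1, a muscle regulator with at most 98 reads (−3.69). IGF2 and DBH completed it and are given below.

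Of 24 genes of cholesterol synthesis and uptake, 14 were lower, 0 higher, and 23 lay below 0, with a median of −0.66. INSIG1, which retains the SREBP precursors in the endoplasmic reticulum, had 29.3, 41.9 and 10.6 FPKM in NC and 27.8, 43.9 and 9.35 FPKM in siPrp19 replicates 1, 2 and 3, a difference of −1.81. MSMO1 differed by −1.63 and HMGCS1 by −1.33, both enzymes of the synthesis pathway. In fatty acid synthesis 1 of 12 genes was lower, the desaturase SCD, at −1.56, and the median of that list was 0.10.

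**Figure D3:**
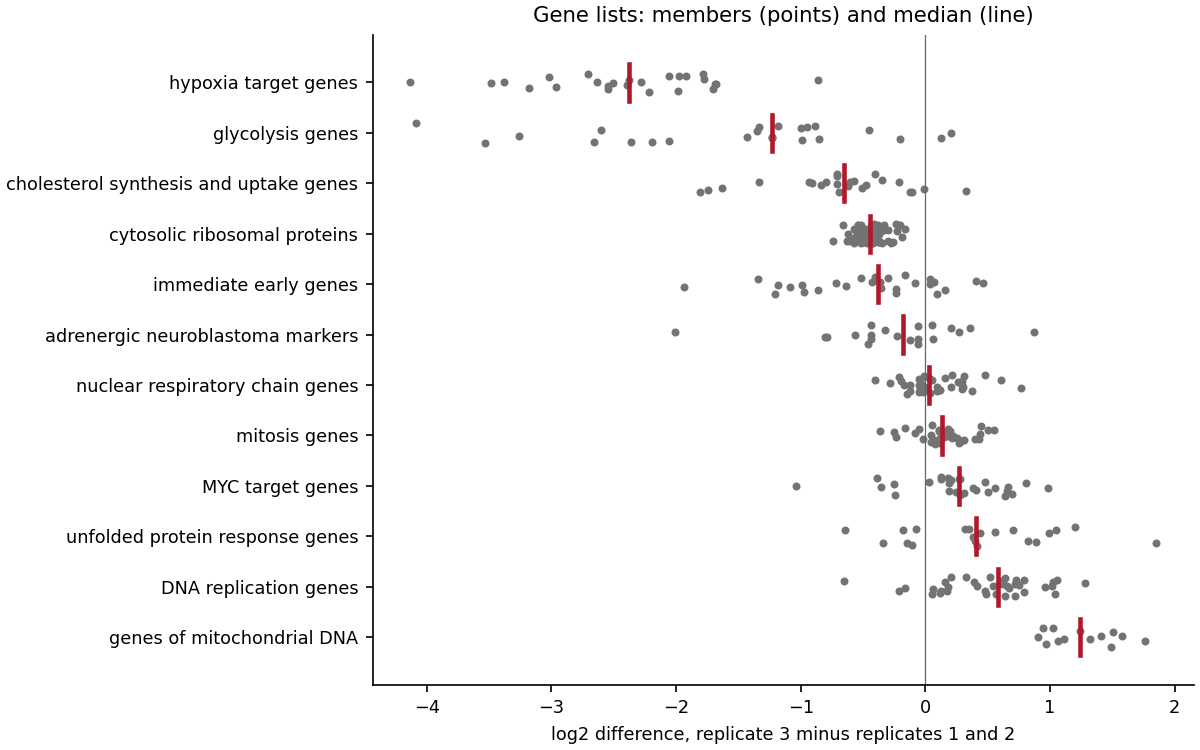
Each grey point is a list member that reached the minimum level, placed on the x axis by its log2 difference between replicate 3 and replicates 1 and 2, and the red line is the list's median; vertical scatter within a list carries no value. Hypoxia targets (median −2.37) and glycolysis genes (−1.23) lie to the left, DNA replication genes (0.58) and genes of mitochondrial DNA (1.24) to the right.

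The protein-coding genes of the mitochondrial genome, which encode subunits of the respiratory chain and ATP synthase, were the list with the highest median. All 13 were higher, by 0.90 to 1.76, with a median of 1.24 in both NC and siPrp19. MT-ATP6, an ATP synthase subunit, had 1721, 1571 and 4718 FPKM in NC and 1519, 1589 and 4825 FPKM in siPrp19 replicates 1, 2 and 3. MT-CO2, a cytochrome oxidase subunit, had 2630, 2027 and 6087 FPKM in NC and 2434, 1982 and 6730 FPKM in siPrp19. Replicate 3 stood apart in both genes, while replicates 1 and 2 lay close together. MT-ATP8, whose frame overlaps MT-ATP6 and shares reads with it, differed by 1.76. Mitochondrial genes together took 10.5% to 11.6% of all FPKM in replicates 1 and 2, and 20.0% and 20.9% in NC and siPrp19 replicate 3.

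The mitochondrial ribosomal RNAs did not follow the messenger RNAs. MT-RNR1, the small subunit RNA, had 804.5, 1613 and 465.4 FPKM in NC and 851.0, 2019 and 517.0 FPKM in siPrp19, which is lowest in replicate 3. MT-RNR2, the large subunit RNA, had 3829, 5982 and 3786 FPKM in NC and 4100, 6899 and 4304 FPKM in siPrp19, where siPrp19 replicate 3 lay above replicate 1. The nuclear genes of the respiratory chain had a median of 0.03, with 2 of 37 higher and 0 lower, beside 7.95% and 9.00% over all genes. The higher ones were NDUFB3, a complex I subunit, at 0.77 and ATP5MC1, the ATP synthase c subunit, at 0.60. TFAM and POLRMT, needed for mitochondrial transcription and looked at after their values were seen, differed by 0.08 and 0.05. COX4I2, the oxygen-responsive isoform of a cytochrome oxidase subunit, differed by −1.46.

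Cell cycle genes were described by lists of DNA replication and of mitosis. Of 38 replication genes, 19 were higher and 1 lower (CDT1, a licensing factor, at −0.65), with a median of 0.58. Without replicate 2, 11 of 38 were higher and the median was 0.44. PCNA, the sliding clamp, had 70.03, 56.4 and 133.1 FPKM in NC and 66.6, 52.4 and 120.4 FPKM in siPrp19 replicates 1, 2 and 3. CCNE1, the cyclin of the entry into S phase, differed by 1.28, GINS4, part of the replicative helicase, by 1.04 and RRM2, a ribonucleotide reductase subunit, by 1.02. CLSPN, a checkpoint adaptor at the fork and one of the 15 highest genes, differed by 1.51 ± 0.17 (SE). Of 36 mitosis genes 0 were higher and 0 lower, with a median of 0.13 and the largest value at CENPA, a centromeric histone, 0.55. CCND1, the G1 cyclin, had 170.4, 172.3 and 301.1 FPKM in NC and 120.7, 124.4 and 267.4 FPKM in siPrp19. Its replicate 3 samples were above all others by 0.97 ± 0.10 (SE).

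MYCN, the amplified oncogene of the line, had 958.5, 849.5 and 1167 FPKM in NC and 1215, 801.5 and 1104 FPKM in siPrp19 replicates 1, 2 and 3, and replicate 3 overlapped with replicate 1. Of 28 MYC target genes 6 were higher and 1 lower, with a median of 0.27. The largest difference was that of the lower gene, PPAN, a ribosome assembly factor, at −1.04. The higher ones included ODC1, the first enzyme of polyamine synthesis, at 0.81 and RRS1, also a ribosome assembly factor, at 0.98. MYC itself, which is low in this line, differed by −1.21. Over all genes tested 48.7% lay below 0, 9.00% were lower and 7.95% higher. The cytosolic ribosomal proteins lay below 0 in 78 of 78 genes and had a median of −0.44, with 5 counted as lower. That count was 18 without replicate 1, 10 with TPM and 1 under quantile normalization. Under quantile normalization 75 of 78 genes lay below 0 and the median was −0.20. Many of these genes have processed pseudogenes that can share reads with them.

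Of 20 genes of the unfolded protein response, mostly chaperones and folding enzymes of the endoplasmic reticulum, 7 were higher in replicate 3, 1 was lower and 6 lay below 0, with a median of 0.40. The list had 5 higher, 2 lower and a median of 0.27 without replicate 1. SDF2L1, a cofactor of the chaperone HSPA5, had 9.39, 7.39 and 33.5 FPKM in NC and 10.7, 6.83 and 28.2 FPKM in siPrp19. HYOU1, an exchange factor induced by both hypoxia and unfolded protein, differed by 1.20, HSPA5 by 0.82 and DNAJB9, a co-chaperone, by −0.65. Targets of ATF4, the factor of the amino acid response, were split, with 6 of 28 higher and 6 lower. Over all genes 7.95% were higher and 9.00% lower. The higher ones included CHAC1, which degrades glutathione (1.89), SLC7A11, the cystine transporter (1.13) and PSAT1, an enzyme of serine synthesis (1.10). The lower ones included VEGFA, DDIT4 and STC2, which also stand on the hypoxia list, and SHMT2, a mitochondrial folate enzyme (−1.16).

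The highest 15 protein-coding genes also held genes on none of the lists above. GPR22, an orphan receptor, had 2.95, 3.22 and 13.4 FPKM in NC and 2.69, 2.77 and 9.14 FPKM in siPrp19. SCGN, a calcium sensor of neuroendocrine cells, had 10.7, 7.09 and 29.9 FPKM in NC and 8.38, 5.55 and 30.3 FPKM in siPrp19. SSTR1, a somatostatin receptor, differed by 2.09, and PCP4, a calmodulin regulator with 4 to 13 reads in replicates 1 and 2 and 53 and 70 in replicate 3, by 2.71. CTPS1, the enzyme that makes CTP, differed by 1.68, TIGAR, a fructose bisphosphatase, by 2.06, RTN4IP1, a mitochondrial protein, by 1.75, and UTRN, the dystrophin homologue, by 1.71. RPS6KL1 and ADAT1 differed by 1.52 and 1.47.

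**Figure D4:**
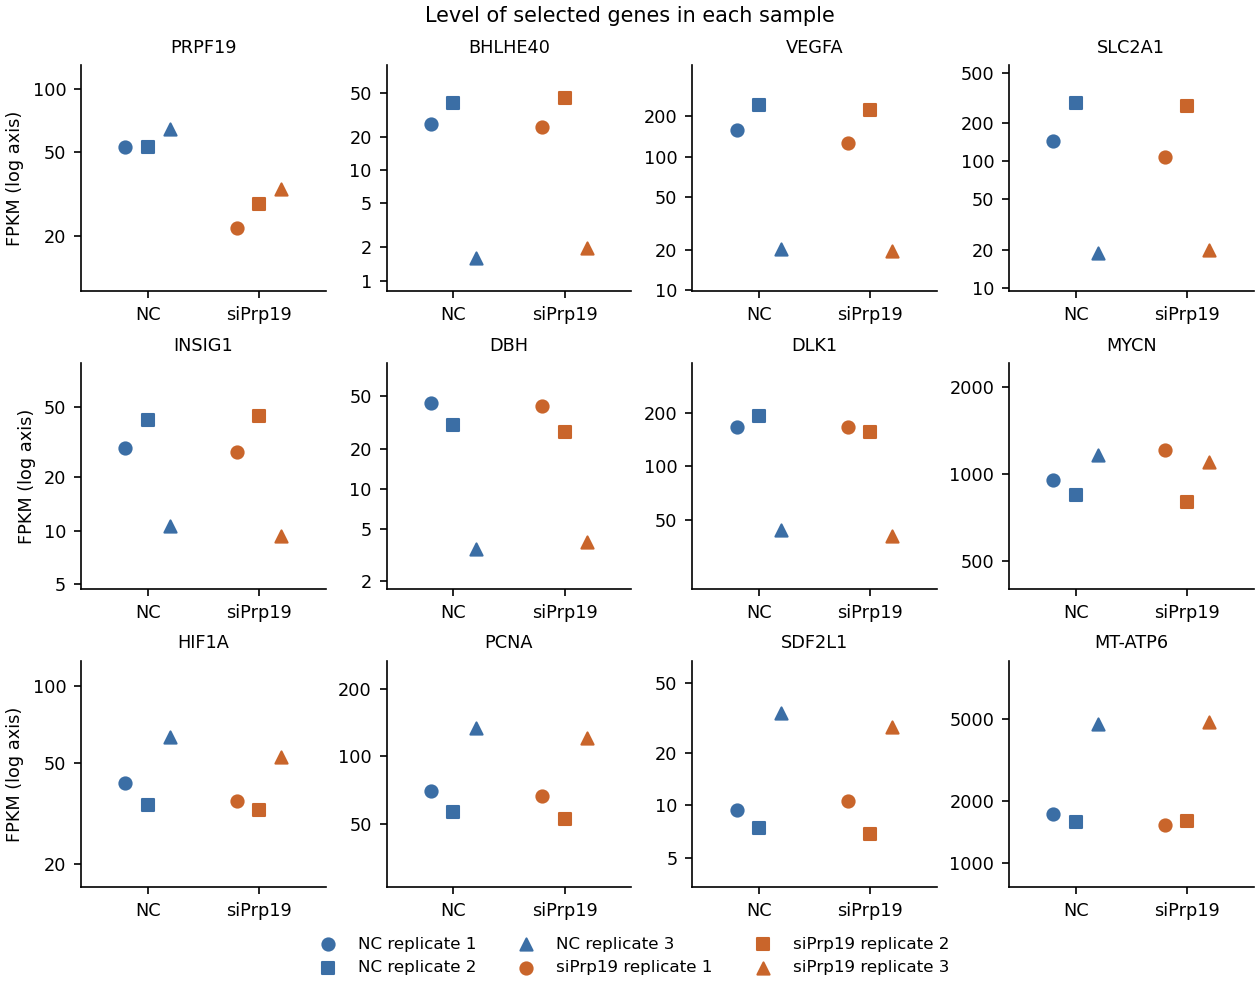
FPKM (log axis, with its own range in each panel) of 12 genes in each sample, with colour for the treatment and shape for the replicate number. PRPF19 splits by treatment, BHLHE40, VEGFA, SLC2A1, INSIG1, DBH and DLK1 are lowest in both replicate 3 samples, HIF1A, PCNA, SDF2L1 and MT-ATP6 are highest there, and MYCN overlaps.

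Most markers of the lineage of the line were counted in neither direction. Of 20 adrenergic markers, 3 were lower and 1 was higher, beside 9.00% and 7.95% over all genes, and the median was −0.18. LMO1, a transcriptional cofactor, ALK, the receptor kinase, and DLK1 were lower, at −0.81, −0.79 and −2.01. HAND2 and GATA3 differed by −0.32 and −0.12. Within the 12 catecholamine genes 3 were lower, 0 higher and 5 above 0, with a median of −0.08. That median was 0.04 without replicate 1 and −0.24 without replicate 2. DBH, which converts dopamine to noradrenaline, had 44.2, 30.04 and 3.49 FPKM in NC and 41.9, 26.7 and 3.94 FPKM in siPrp19. TH, the rate-limiting enzyme of the pathway, had 242.5, 219.8 and 148.1 FPKM in NC and 240.2, 194.4 and 142.6 FPKM in siPrp19, a smaller difference of −0.62. SLC18A1, a vesicular monoamine transporter, differed by −2.01, and DDC, which makes dopamine, by 0.31. Mesenchymal state markers had a median of −0.18, with 2 of 15 lower (FOSL2, an AP-1 factor, and FN1, fibronectin) and 1 higher, SNAI2, a transcription factor of neural crest migration.

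Immediate early genes answer growth signals and stress within minutes. Of 28, 7 were lower and 0 higher, beside 9.00% and 7.95% over all genes, with a median of −0.38. This depended on the base, with 15 lower, 0 higher and a median of −0.66 without replicate 1, and 5 lower, 2 higher and a median of −0.03 without replicate 2. In 24 of 28 genes replicate 2 lay above replicate 1 in both treatments. KLF10, a TGF-beta induced repressor, differed by −1.94, CCN1 by −1.34 and IER3 by −1.19. Among YAP target genes 4 of 21 were lower and 2 higher, with a median of −0.16, and 7 were lower without replicate 1. CCN2, a matricellular YAP target, had 5.92, 5.85 and 1.43 FPKM in NC and 2.30, 3.58 and 0.827 FPKM in siPrp19, and ANKRD1, a muscle-type ankyrin repeat target, differed by −2.88. YAP1 itself had 1.20, 1.95 and 1.61 FPKM in NC and 0.524, 1.18 and 0.743 FPKM in siPrp19 with a replicate 3 difference of −0.01, so its samples overlapped across replicate numbers. TGFB1, a growth factor of matrix and differentiation, differed by −2.21. The medians of further lists were −0.34 for 6 metallothionein and zinc genes, −0.30 for 10 NF-kappaB targets, −0.20 for 13 Notch pathway genes, 0.23 for 16 NRF2 targets and −0.10 for 21 p53 targets. Interferon response genes, heat shock genes, lysosome and autophagy genes and neuronal cytoskeleton and synapse genes had medians of 0.12, 0.08, −0.03 and −0.05. Single genes in them stood out, among them HMOX1, haem oxygenase (−2.30), NQO1, a quinone reductase (1.23), GDF15, a stress cytokine (1.83), and VGF, a neuropeptide precursor (0.81).

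Markers of other cell types gave few genes over the minimum. The endothelial list had 0 members over it and a summed level of 0.711 to 1.44 FPKM, the epithelial list 1 (EPCAM), the melanocyte list 1 and the Schwann cell list 4. Of 9 fibroblast markers 1 was lower, beside 9.00% over all genes, and the median was −0.19. The lower one was TAGLN, an actin-binding protein. In the blood cell list the globin genes HBB and HBA2 were at 15.4 and 5.14 FPKM in NC replicate 1 and at 0 in siPrp19 replicate 3. The list summed to 23.0, 5.97 and 4.11 FPKM in NC and 5.88, 2.97 and 1.6 FPKM in siPrp19 replicates 1, 2 and 3. NC replicate 1 alone stood far above the other samples. HBA2 can share reads with its near-identical copy HBA1. The part of these globin genes in the results above was not tested.

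Some imprinted genes, which are expressed from the copy of one parent, were lower in replicate 3. The interval from DLK1 to DIO3 on chromosome 14 (100725705 to 101563452, GRCh38), chosen after values were seen, carries paternally expressed coding genes and maternally expressed noncoding RNAs, with large clusters of snoRNAs and miRNAs. Of its 124 genes in the files 68 passed the minimum, among them 38 snoRNAs and 22 miRNAs. Of these 65 lay below 0, 41 were lower and 0 higher, with a median of −2.12 (−1.54 in NC, −2.41 in siPrp19). Over all genes tested 9.00% were lower and 7.95% higher. The minimum was on the mean of all samples. Genes such as SNORD114-17, at 0 FPKM in both replicate 3 samples, passed it through replicates 1 and 2 alone. The count is thus partly fixed by the filter, and nothing is read from it. Small RNA genes rest on few reads in a library of this kind. The 7 genes of at least 200 bases were all lower, with a median of −1.30. Among them RTL1 (0.71 and 0.37 FPKM) and the noncoding DIO3OS (0.80 and 0.69 FPKM) were under the minimum in NC and siPrp19 replicate 3. They too passed it through replicates 1 and 2. DLK1, an inhibitory Notch ligand homologue, had 166.9, 190.6 and 43.7 FPKM in NC and 166.8, 156.3 and 40.6 FPKM in siPrp19. MEG3, the maternally expressed noncoding RNA, had 145.3, 100.6 and 50.5 FPKM in NC and 145.9, 90.5 and 45.3 FPKM in siPrp19. Both genes were thus lower in replicate 3, and the parental copies were not told apart in these values. DIO3, a thyroid hormone deiodinase, differed by −1.28 and RTL1, a retrotransposon-derived gene, by −2.31.

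**Figure D5:**
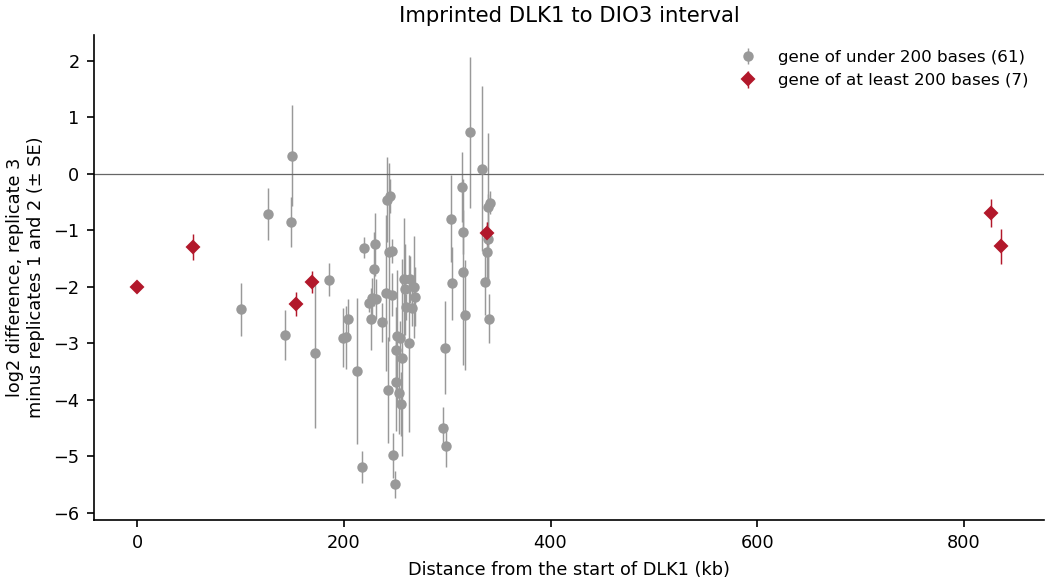
Log2 difference between replicate 3 and replicates 1 and 2 (y axis, with the SE of the additive fit) against distance from the start of DLK1 in kb (x axis), for the 68 genes of the interval that reached the minimum level. The 7 genes of at least 200 bases (red diamonds) all lie below 0, as do most of the 61 shorter genes (grey).

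The imprinted region at the end of chromosome 11 gave similar values for its best-known genes, also looked at after values were seen. IGF2, the fetal growth factor, had 60.4, 57.8 and 6.28 FPKM in NC and 56.1, 44.0 and 5.43 FPKM in siPrp19. CDKN1C, a cyclin kinase inhibitor, had 102.9, 132.0 and 11.9 FPKM in NC and 93.8, 119.4 and 14.4 FPKM in siPrp19, and ASCL2 differed by −2.34. H19, the noncoding RNA beside IGF2, differed between the NC and siPrp19 samples of replicate 3. It had 149.4, 210.9 and 102.1 FPKM in NC and 173.6, 202.6 and 22.9 FPKM in siPrp19. Imprinted genes on other chromosomes were looked at in the same way. NNAT differed by 0.275, PEG3 by 0.19, PEG10 by −0.08, NDN by 0.07, SGCE by −0.09 and SNRPN by 0.10. Across 23 nuclear chromosomes the median difference ran from −0.103 to 0.096. The difference correlated with r = −0.01 with GC content and 0.13 with log2 exon length over 14420 genes.

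The test that the choice of replicate 3 did not use was whether the effect of siPrp19 differed in replicate 3. By limma with Benjamini-Hochberg adjustment, 0 of 14462 genes (0%) had an adjusted p under 0.05, 243 had an unadjusted p under 0.05 and the smallest adjusted p was 0.73. The median interaction was 0.02. The limma fit held no replicate block, so a gap between replicates 1 and 2 shared by both treatments counted in its errors. For YAP1, replicate 2 minus replicate 1 was 0.65 in NC and 1.03 in siPrp19. PRPF19 had an interaction of 0.14 ± 0.28 (SE), CCND1 0.31 ± 0.17, CCN2 0.29 ± 0.45, MYCN −0.21 ± 0.40 and YAP1 −0.15 ± 0.87, each with an adjusted p of 1.0 by limma, and these errors leave room for sizeable differences. With replicate number fitted as a block, 5 genes passed, 4 of which are small RNA genes or annotated RNA families (MIR210, SNORD114-28, SNORD113-1 and RF01972) and one an immunoglobulin pseudogene (IGHVII-46-1). limma voom on recovered reads gave 0 genes, with 74 at an unadjusted p under 0.05, and 31 genes with the block.

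The 3 genes with the smallest p were short and rest on few reads. SNORD114-28, a snoRNA of the DLK1 to DIO3 interval, had 9, 4 and 10 reads in NC and 19, 14 and 0 in siPrp19 replicates 1, 2 and 3. MIR331 had 4, 3 and 11 reads in NC and 7, 7 and 2 in siPrp19, and ENSG00000226744 had 6, 5 and 30 reads in NC and 12, 11 and 13 in siPrp19. Their adjusted p was 0.73 by limma. H19, named after its values were seen, had a log2 difference between siPrp19 and NC of 0.22, −0.06 and −2.15 in replicates 1, 2 and 3. Its interaction was −2.23 with an adjusted p of 1.0 by limma, and over 14 other settings the adjusted p ran from 5.16e-16 (voom with the block) to 1.0, with 1 of the 14 under 0.05.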

How the data were processed

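RNA-seq of 6 SK-N-BE(2) samples (NC and siPrp19, replicates 1, 2 and 3) was analysed. The authors deposited 1 FPKM value per gene and sample, and the submitters' processing notes name HISAT2 2.0.5, featureCounts 1.5.0-p3 and hg38. The annotation, the strand setting and the scaling behind the FPKM values are not given in the sources used here. In GENCODE 29, 58039 of 58302 identifiers were found. Multiplied by merged exon length and a step per sample, 96.7% to 96.9% of values worth under 100 reads were whole reads (tolerance 0.02), which gave the read numbers used here. Counting error differs between the named genes, and the spread between samples also limits precision. Some rest on few reads, such as SRMS (8 and 11) and CABP7 (25 and 20) in NC and siPrp19 replicate 3. COX4I2 had 7 to 42 reads over all samples. RefSeq upstream sequences were matched by symbol, taking the first entry of a gene.

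Analysis used log2(FPKM + 0.1) and kept genes whose mean over the 6 samples reached 1 FPKM. Replicate 3 was set against the mean of replicates 1 and 2 within NC and within siPrp19, and both differences were averaged. A gene counted as higher or lower where both replicate 3 samples lay outside the other 4 and the difference reached 1.5-fold. The interaction was fitted in limma 3.58.1 under R 4.3.3 (eBayes with trend) with Benjamini-Hochberg adjustment at 0.05 and was tested on simulated data. Tables and plots used Python 3.11.15, pandas 2.3.3, numpy 2.4.6 and matplotlib 3.10.9. Named genes were PRPF19, MYCN, YAP1, CCN2 and CCND1, the 15 highest and 15 lowest protein-coding genes ranked by the smaller of the differences in NC and siPrp19, up to 4 members per list with the largest difference, and the 3 smallest interaction p-values, besides genes said to be looked at later and some further list members. The members, gene lists and named genes were chosen with earlier results of these data known. Samples of the same number deviated together from their group means (r = 0.38, 0.57 and 0.64 for replicates 1, 2 and 3), so the numbers in the labels were taken to pair the samples, and the block with them was an alternative. Other alternatives were a pseudocount of 1, no minimum, a minimum of 5 FPKM, TPM, quantile normalization, a GC and length correction, limma without trend and robust, a 2-fold limit and each sample or replicate left out. Some genes that the rule names are not reported here.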

Additional observations from a re-analysis of the deposited data

How the results depend on the processing

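The counts of 1150 higher and 1302 lower genes became 245 and 566 at a 2-fold limit, 2226 and 2574 with no minimum level and 525 and 647 at a minimum of 5 FPKM, and a pseudocount of 1 gave 730 higher genes. With a sample or replicate left out they ran from 992 to 1911 higher and from 1229 to 2040 lower, the highest without replicate 1. Each list was given a spread, the standard deviation of its medians against replicate 1 or replicate 2 alone in each treatment. Of 180 recomputed list medians 162 moved by less than this spread, and the cause of the other changes was not tested. Leaving out replicate 1 or 2 moves a median along the same gap that sets the spread. The number 162 is therefore no measure of stability for those settings. In 12 lists 1 recomputed median had the other sign, 11 of them with replicate 1 or 2 left out, and for interferon genes alone the reported median also exceeded that spread. Quantile normalization gave −0.05 for adrenergic markers, −0.20 for ribosomal proteins, 1.07 for genes of mitochondrial DNA and 0.11 for nuclear respiratory chain genes. With replicate 1 and then replicate 2 left out, medians were −0.29 and −0.10 for mesenchymal markers, −0.26 and 0.11 for p53 targets, 0.33 and 0.22 for MYC targets, −1.51 and −1.08 for glycolysis, −2.48 and −2.15 for hypoxia targets, −0.72 and −0.55 for cholesterol genes, 0.27 and 0.60 for the unfolded protein response, −1.08 and −0.02 for metallothioneins, 0.19 and −0.05 for interferon genes (0.12 as reported), −0.03 and 0.23 for CREB genes, 0.16 and 0.02 for matrix protease genes and −0.09 and −0.33 for fibroblast markers. The first component held 58.7% of the variance with a pseudocount of 1 and 71.4% at a minimum of 5 FPKM.

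The interaction called 0 genes, and 0 to 6 genes with 1 sample left out, 6 without NC replicate 1, 1 without NC replicate 2 and 0 without siPrp19 replicate 1 or 2. It could not be fitted without either replicate 3 sample. With no minimum level 763 genes passed, of which 758 had a mean under 1 FPKM. The replicate block gave 5 genes and voom with the replicate block, chosen after seeing the data, 31. A pseudocount of 1, a minimum of 5 FPKM, TPM, quantile normalization, the GC and length correction, limma without trend and robust, and voom without the block each gave 0. The DLK1 to DIO3 interval median was −1.30 when restricted to genes of at least 200 bases, also chosen after seeing the data. Replicate 3 is 1 sample per treatment, so its spread within a treatment is not measured, and the replicate number cannot be told apart from whatever was shared by its 2 samples.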

Other observations

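Further genes with differences in replicate 3 belong to programmes not described above, and their values are given without explanation. Of the histone genes, 4 on chromosome 6 were looked at after values were seen, with no list behind them. H4C8 had 7.82, 12.97 and 1.22 FPKM in NC replicates 1, 2 and 3 and 8.44, 18.4 and 0.988 FPKM in siPrp19 replicates 1, 2 and 3, and H2AC6, H2BC5 and the linker histone H1-2 differed by −2.15, −1.69 and −0.96. Histone genes are near-identical to one another, so reads can be shared between them. TXNIP and ARRDC4, arrestin-family genes that answer glucose, differed by −2.10 and −1.44, and TXNIP had 118.7, 228.9 and 35.9 FPKM in NC and 133.3, 273.2 and 47.2 FPKM in siPrp19. The clock genes PER1 and PER2 differed by −1.08 and −1.01.

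Neuropeptide and guidance genes differed in both directions. CRH, corticotropin-releasing hormone, had 5.94, 8.24 and 1.08 FPKM in NC and 4.71, 6.20 and 0.392 FPKM in siPrp19, a difference of −3.04, while SST, somatostatin, had 6.01, 4.13 and 15.5 FPKM in NC and 4.49, 3.89 and 11.3 FPKM in siPrp19, a difference of 1.52. Of 38 axon guidance genes 7 were lower and 2 higher, beside 9.00% and 7.95% over all genes, with a median of −0.02. Among them EFNA3, an ephrin ligand, and SLIT1, a repellent, differed by −2.74 and −1.96. CDH22, a brain cadherin, differed by −2.92. Of 20 receptor tyrosine kinases and neurotrophic receptors 4 were higher and 1 lower, with FGFR3 at 1.05 and ALK at −0.79. RARA, a retinoic acid receptor, differed by −1.20, and MSX1, a homeobox target of BMP, by 1.34.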
